A study of Mus musculus with 9 samples.

Results

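B cell coreceptors are membrane proteins that raise or lower the signal of the antigen receptor. Of the 23700 entries of each gene table, 8 were taken by symbol: 2 activating coreceptors, Cr2 and Cd81, and 6 inhibitory receptors, Cd22, Cd72, Fcgr2b, Siglecg, Lair1 and Ceacam1. Each symbol occurred once. The question was whether the complement coreceptor and the inhibitory receptors have their transcripts high and low in the same germinal center B cells. The study asks how the transcription factor Foxo1 acts in these cells.

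RNA was sequenced from mouse spleen cells in 9 libraries, 3 each of wild-type light zone (LZ), wild-type dark zone (DZ) and Foxo1-deficient germinal center B cells. LZ and DZ cells were CD45.1/1 and Foxo1(+/+), whereas Foxo1-deficient cells were CD45.1/2 and Foxo1(f/f). All 3 groups carried ERT2cre(KI/+), a recombinase switched on by tamoxifen, together with B1-8hi(KI/+), a receptor for the hapten NP, and both kinds of B cell were transferred in equal parts into C57BL/6 recipients. All recipients were immunized with NP-CGG in alum on day 0 and given oral tamoxifen on days 7, 8 and 9, and cells were sorted on day 12, at about 10000 cells a library. LZ cells were gated as CD86 high and CXCR4 low and DZ cells as CD86 low and CXCR4 high, whereas Foxo1-deficient cells had no zone gate. Genotype and gate therefore change together, and their shares in a difference from either zone cannot be told apart. The labels give a CD45.2-negative gate for all 3 groups although the Foxo1(f/f) cells are CD45.1/2, and they do not give the age of the mice or say whether replicates were separate animals, so p-values measure only how far these samples spread, and that spread may be technical.

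Values are FPKM, a fragment count divided by transcript length and library total, so levels may be compared between genes. Changes are differences of log2(FPKM + 1), the group named first minus the second, with the standard error (SE), and adjusted p-values are Benjamini-Hochberg values of limma over 10004 tested genes, with a threshold of 0.05. In bulk RNA, fewer cells of a type and less RNA per cell cannot be told apart. Foxo1 itself was at 0.81 to 3.01 in the Foxo1-deficient libraries, below the 14.8 to 22.1 of LZ and the 19.1 to 24.5 of DZ. B lineage markers were high in every library: Cd79a, a signalling chain of the antigen receptor, was at least 317 and Pax5, the B lineage transcription factor, at least 92.5. All 11 markers of B cells and germinal centers had a mean above 1 in each group.

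On a mature B cell, complement fragments bound to antigen are held by the product of Cr2, which in the mouse encodes both CD21 and CD35. This receptor sits in a membrane complex that holds the tetraspanin CD81 and strengthens the signal to phosphoinositide 3-kinase. The inhibitory receptors carry tyrosine motifs (ITIMs) in their cytoplasmic tails that, once phosphorylated by kinases such as Lyn, recruit the phosphatases SHP-1, encoded by Ptpn6, or SHIP-1, encoded by Inpp5d. Cd22 and Siglecg encode lectins that bind sialic acid, Cd72 a C-type lectin that binds semaphorin 4D, Fcgr2b the Fc receptor that senses antibody in immune complexes, Lair1 a receptor for collagen, and Ceacam1 an adhesion receptor.

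In the plot of the 8 transcripts by library, Cr2, Cd22, Siglecg and Cd72 stood apart between the zones, as did 22.3% of tested genes. The others, Cd81 among them, did not. In build mm9, with coordinates as the files give them, Cr2 lies on chromosome 1 from 196963004 to 197002909, Fcgr2b on chromosome 1 from 172890688 to 172906202, and Cd72 on chromosome 4 from 43460595 to 43467498. The other 5 lie on chromosome 7: Lair1 from 3958674 to 4014806, Ceacam1 from 26246720 to 26262644, Cd22 from 31650422 to 31665361, Siglecg from 50663649 to 50673719 and Cd81 from 150238654 to 150253835.

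**Figure D1:**
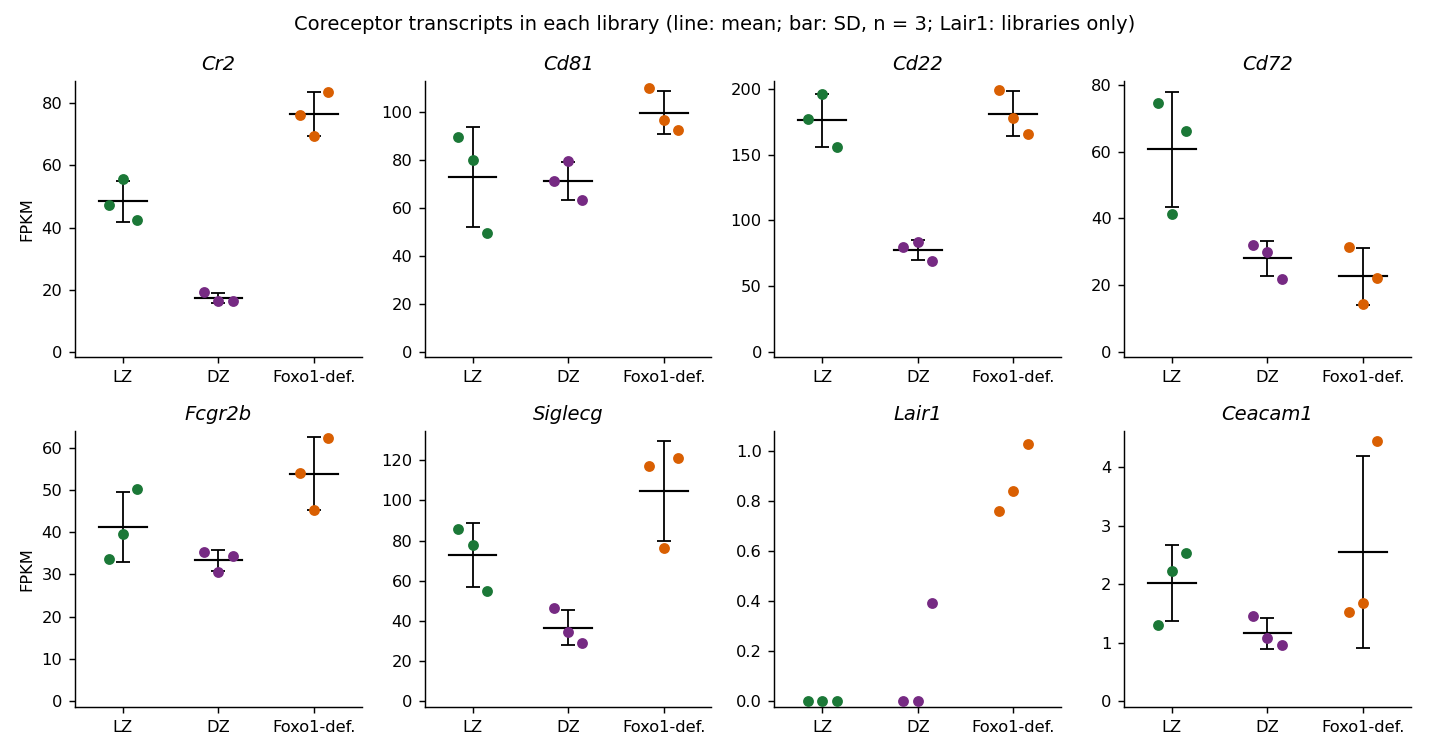
FPKM of the 8 transcripts (vertical axis, each panel with its own scale from 0) in the 3 LZ, 3 DZ and 3 Foxo1-deficient libraries, 1 point a library, with the mean as a line and the SD as a bar except for Lair1, which is listed at 0 in 5 libraries. Cr2 runs from 16.3 to 19.3 in DZ, from 42.6 to 55.7 in LZ and from 69.6 to 83.8 in the Foxo1-deficient group. The mean of Cd72 is lowest in Foxo1-deficient cells, whose libraries overlap those of DZ.

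Between the wild-type zones, Cr2 and Cd22 fell together from LZ to DZ. Cr2 had an FPKM of 47.4, 55.7 and 42.6 in the 3 LZ libraries and of 19.3, 16.3 and 16.3 in the 3 DZ libraries. Every DZ library was below every LZ library, and the LZ mean was 2.80 times the DZ mean. The difference was -1.43 (SE 0.163, adjusted p = 0.00197), and 1.93% of the tested genes differed by more. Cd22 had LZ values of 177, 196 and 156 and DZ values of 79.6, 83.8 and 69.2, again with no overlap, and fell by 1.17 (SE 0.143, adjusted p = 0.00283).

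Of the 8 transcripts, 7 passed the filter on low values (an FPKM of 1 reached in 3 or more libraries), and these 2 of 7 were lower in DZ at the threshold, against 1.38% of all tested genes. None was higher, against 0.56% of all tested genes, and 1.94% of the genes were called in either direction. The median difference of the 7 was -0.97, beside -0.15 over all tested genes. Both calls were kept in each of the 17 alternatives to the processing.

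Siglecg and Cd72 had lower DZ values in all libraries but did not pass. Siglecg had LZ values of 85.9, 77.8 and 55.0 and DZ values of 46.5, 34.5 and 29.2, a difference of -0.97 (95% interval -1.50 to -0.44, adjusted p = 0.0762). Cd72 stood at 74.5, 41.3 and 66.3 in the LZ and at 32.0, 30.0 and 21.9 in the DZ libraries, a difference of -1.06 (95% interval -1.71 to -0.41, adjusted p = 0.114). LZ replicate 2 was the low library for Cd72. For both, the LZ and DZ libraries do not overlap, as for 17.1% of tested genes in that direction, 5.16% in the other and 22.3% in either.

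The tetraspanin transcript and the Fc receptor transcript showed no such step. Cd81 had 89.4, 79.7 and 49.4 in the LZ and 71.0, 79.2 and 63.0 in the DZ libraries, and the difference was 0.00 (95% interval -0.46 to 0.46, adjusted p = 0.999). Fcgr2b had LZ values of 33.7, 39.6 and 50.1 and DZ values of 35.3, 30.5 and 34.4, a difference of -0.28 (95% interval -0.69 to 0.13, adjusted p = 0.544). Without LZ replicate 3 the Fcgr2b difference was -0.13 and the Cd81 difference -0.25. For both genes the libraries of the zones overlap. Thus within the complex of complement receptor and tetraspanin, 1 transcript differed between the zones at the threshold and the interval of the other includes 0.

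Ceacam1 was low in both zones. Its LZ values were 1.30, 2.22 and 2.54 and its DZ values 1.46, 1.07 and 0.957, and the difference of -0.47 did not pass (adjusted p = 0.618). The half-width of the authors' interval was 23.6% to 46.9% of the Ceacam1 value in a library, beside 4.23% to 9.50% for Cr2 and 3.25% to 5.81% for Cd22. Lair1 was listed at 0 in the 3 LZ libraries and at 0, 0 and 0.393 in DZ, and was not tested.

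Promoter windows of Cr2, Cd22 and Cd72 are printed because the first 2 moved together in the zones and the third parted from them in Foxo1-deficient cells. They are the 250 bases before the start site, 5′ to 3′ on the strand of the gene, from RefSeq on GRCm38.p6, a later build than that of the expression files. They lie at chr1:195176720-195176969, chr7:30879029-30879278 and chr4:43454627-43454876, all on the minus strand. Capitals mark matches to a motif searched.
Cr2: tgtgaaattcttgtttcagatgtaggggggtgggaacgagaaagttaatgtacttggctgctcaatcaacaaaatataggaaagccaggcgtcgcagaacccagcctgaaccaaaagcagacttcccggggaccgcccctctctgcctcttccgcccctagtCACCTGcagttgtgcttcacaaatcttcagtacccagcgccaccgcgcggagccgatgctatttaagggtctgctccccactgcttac
Cd22: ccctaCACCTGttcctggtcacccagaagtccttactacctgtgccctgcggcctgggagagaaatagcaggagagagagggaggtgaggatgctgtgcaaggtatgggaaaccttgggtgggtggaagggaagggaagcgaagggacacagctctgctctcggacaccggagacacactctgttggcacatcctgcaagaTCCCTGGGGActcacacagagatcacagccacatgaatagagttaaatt
Cd72: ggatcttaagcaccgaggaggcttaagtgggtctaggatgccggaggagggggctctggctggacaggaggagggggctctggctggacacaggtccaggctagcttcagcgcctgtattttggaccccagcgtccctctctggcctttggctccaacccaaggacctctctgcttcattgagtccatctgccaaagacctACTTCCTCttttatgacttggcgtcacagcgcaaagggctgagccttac

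The search covered both strands of these 250 bases for all 8 genes, each of which had a RefSeq entry, and 32536 distinct windows of all genes. It used a Foxo motif (TGTTTAC), an octamer (ATGCAAAT), an Ebf1 motif, an E-box (CAGGTG), an Ets motif (CCGGAAGT) and a PU.1 motif (GAGGAAGT), of which the last 2 share their final 6 letters. The Foxo motif was in none of the windows of the 8 genes and in 3.17% of all windows. The E-box, in its opposite-strand form, stood in the Cr2 window at positions -88 to -83 and in the Cd22 window at -245 to -240, counted back from the start site, and was in 17.3% of all windows. The Ebf1 motif was in the Cd22 window at -49 to -40 and in that of Ceacam1, and in 0.787% of all windows. The capitals of Cd72 are the PU.1 motif on the opposite strand at -49 to -42, found in 2.45% of all windows. A match is a description of letters, and binding was not measured.

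Against DZ, Foxo1-deficient cells had more Cr2, Cd22 and Siglecg. Cr2 was 76.3, 69.6 and 83.8 in the 3 Foxo1-deficient libraries, 4.42 times the DZ mean, and rose by 2.08 (SE 0.163, adjusted p = 0.000115). Only 0.83% of the tested genes differed by more. Cd22 was 199, 178 and 166 and rose by 1.21 (SE 0.143, adjusted p = 0.00143). Siglecg was 117, 76.3 and 121 and rose by 1.48 (SE 0.241, adjusted p = 0.00846), with Foxo1-deficient replicate 2 the low library. In 1 of the 9 libraries the deposited Siglecg value lies outside its own deposited interval.

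For these 3 genes every Foxo1-deficient library was above every DZ library, as for 17.3% of tested genes; 5.78% were lower without overlap and 23.1% stood apart either way. At the threshold, 3 of 7 were higher, against 2.1% of all tested genes, and none was lower, against 0.75%, with 2.85% called either way. The median of the 7 was 0.66, beside 0.12 over all tested genes. Each of the 3 calls was kept in all 17 alternatives.

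Fcgr2b, Cd81 and Ceacam1 also lay higher in every Foxo1-deficient library than in every DZ library, without passing. Fcgr2b was 54.1, 45.2 and 62.3, a difference from DZ of 0.66 (95% interval 0.25 to 1.07, adjusted p = 0.095). Cd81 was 109.7, 96.3 and 92.5, a difference of 0.48 (95% interval 0.02 to 0.94, adjusted p = 0.283). Ceacam1 was 1.52, 1.68 and 4.44, a difference of 0.63 (adjusted p = 0.435) that was 0.27 without Foxo1-deficient replicate 3.

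For Cd72 the estimated difference from DZ was negative, unlike those of the other tested receptors. It was 31.4, 14.4 and 22.3 in the Foxo1-deficient libraries, which overlap the DZ libraries, and the difference of -0.34 did not pass (95% interval -0.99 to 0.31, adjusted p = 0.62). It was -0.06 without Foxo1-deficient replicate 2 and -0.60 without replicate 1.

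**Figure D2:**
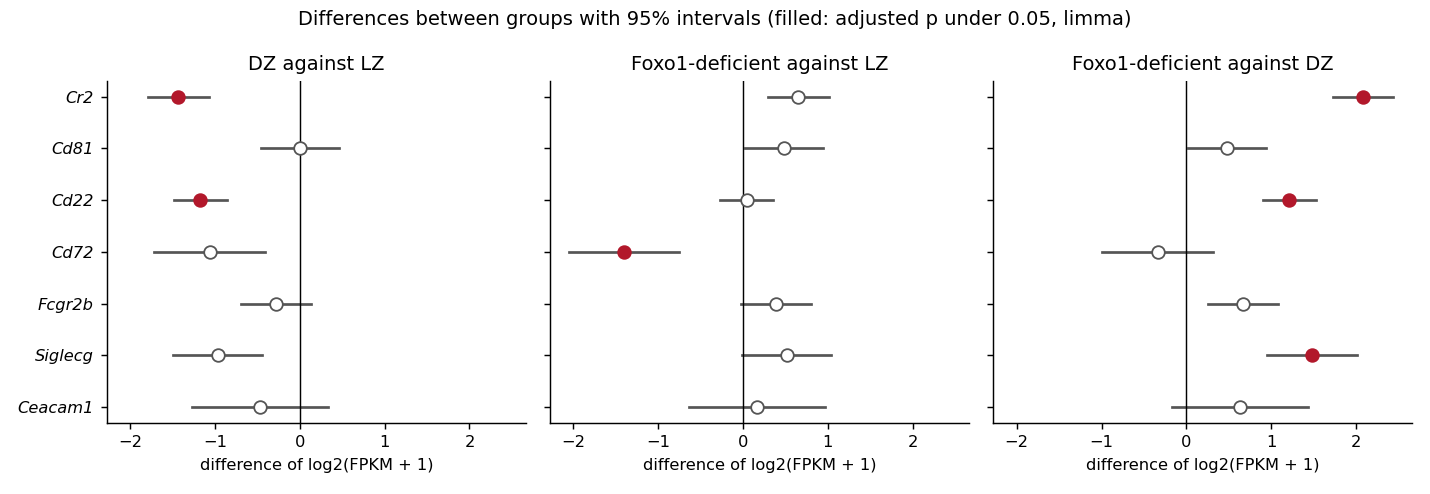
Differences of log2(FPKM + 1) of the 7 tested transcripts (horizontal axis, first group minus second) in the 3 comparisons, with 95% intervals as lines and filled points for an adjusted p under the threshold. Cr2 lies at -1.43 for DZ against LZ and at 2.08 for Foxo1-deficient against DZ, and Cd72 is the sole filled point against LZ among the Foxo1-deficient differences, at -1.40.

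Against LZ, the call among the 7 was a fall of Cd72. Its 3 Foxo1-deficient values lay below the LZ values of 41.3 to 74.5, the LZ mean was 2.68 times the Foxo1-deficient mean, and Cd72 fell by 1.40 (SE 0.296, adjusted p = 0.0425). This is 1 of 7 lower, against 0.87% of all tested genes, and none was higher, against 0.69%, with 1.56% called either way. The call is near the threshold: it was lost in 11 of 17 alternatives, with adjusted p up to 0.163, among them the fits without LZ replicate 1 or 3, any DZ library, or Foxo1-deficient replicate 2 or 3. The difference stayed between -1.66 and -1.13 in all of them. Tesk1, whose locus overlaps that of Cd72, ranged from 1.94 to 5.25 across the LZ, from 2.23 to 4.02 across the DZ and from 2.09 to 5.01 across the Foxo1-deficient libraries, and no source used here states the strand setting. Cd81 overlaps R74862 (0 to 1.49) and Ceacam1 overlaps 4732471J01Rik (0 to 2.23).

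Cr2 was higher in every Foxo1-deficient library than in every LZ library, by 1.58 times on the means. The difference of 0.65 (95% interval 0.29 to 1.01) did not pass (adjusted p = 0.0841). It passed after median centring (0.66, adjusted p = 0.0425) and after quantile normalization (0.75, adjusted p = 0.0298). Cd81 had the same order, with no overlap and a difference of 0.48 (95% interval 0.03 to 0.94, adjusted p = 0.34), which was 0.23 without LZ replicate 3, the low library. Values higher in all Foxo1-deficient than in all LZ libraries were seen in 8.12% of tested genes, the reverse, as for Cd72, in 9.37% and either in 17.5%.

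For Cd22 the Foxo1-deficient and LZ means of 181 and 176 lay within the spread of the libraries, with a difference of 0.04 (95% interval -0.27 to 0.36, adjusted p = 0.934). The differences of Siglecg (0.51, adjusted p = 0.387), Fcgr2b (0.39, adjusted p = 0.402) and Ceacam1 (0.16, adjusted p = 0.888) did not pass, and the libraries of these groups overlap. The Ceacam1 difference was -0.19 without Foxo1-deficient replicate 3 and -0.02 without LZ replicate 1, and that of Siglecg was 0.32 without LZ replicate 3. The median of the 7 was 0.39, beside -0.02 over all tested genes.

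The comparisons share libraries, so their agreement is no separate evidence. On means alone, the Foxo1-deficient group was below both zones for Cd72, but its libraries overlap those of DZ. For the other genes the mean was above both zone means. Of these, Cd22, Siglecg, Fcgr2b and Ceacam1 overlap LZ, and Lair1 was not tested. How many of all tested genes have such an order of means was not counted.

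Lair1, listed at 0 in 5 libraries, was 0.759, 0.837 and 1.03 in the Foxo1-deficient libraries, and the single DZ value above 0 was 0.393. The authors' interval for the highest value ran from 0.484 to 1.57. Lair1 did not meet the filter on low values, and its values above 0 lie almost only in the Foxo1-deficient group. Its differences are therefore given with no test.

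Cr2 was then set against each inhibitory receptor within a library, as log2(Cr2 + 1) minus log2(receptor + 1), a difference from which library scaling largely drops out. With Cd22 the balance was -1.88, -1.80 and -1.85 in LZ, -1.99, -2.29 and -2.02 in DZ and -1.38, -1.34 and -0.98 in Foxo1-deficient cells. Cr2 thus stood lowest against Cd22 in DZ and highest in Foxo1-deficient cells, with no overlap between any of the groups. The DZ mean was 0.26 below the LZ mean, and the Foxo1-deficient mean 0.61 above it.

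With Siglecg the balance was -0.56 ± 0.25 (SD, n = 3) in LZ and -0.42 ± 0.26 in Foxo1-deficient cells, a difference of 0.14 with overlapping libraries, and its mean in DZ was -1.02 ± 0.21, where the libraries also overlap those of LZ. With Fcgr2b it came to 0.24 ± 0.41 in LZ, -0.91 ± 0.10 in DZ and 0.51 ± 0.10 in the Foxo1-deficient group. Cr2 was therefore above Fcgr2b in all Foxo1-deficient libraries and below it in all DZ libraries. Ceacam1 gave the same order, 4.05 ± 0.39, 3.08 ± 0.05 and 4.54 ± 0.51.

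With Cd72 the balance was -0.64, 0.42 and -0.63 in LZ, -0.70, -0.84 and -0.41 in DZ and 1.25, 2.20 and 1.87 in the Foxo1-deficient group. The zones overlap, and the Foxo1-deficient libraries lay above both, by 2.06 against LZ and 2.42 against DZ. Within the activating pair, Cr2 relative to Cd81 was -1.83, -2.21 and -1.89 in DZ, below the range of -0.90 to -0.21 in LZ and of -0.52 to -0.14 in Foxo1-deficient cells.

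**Figure D3:**
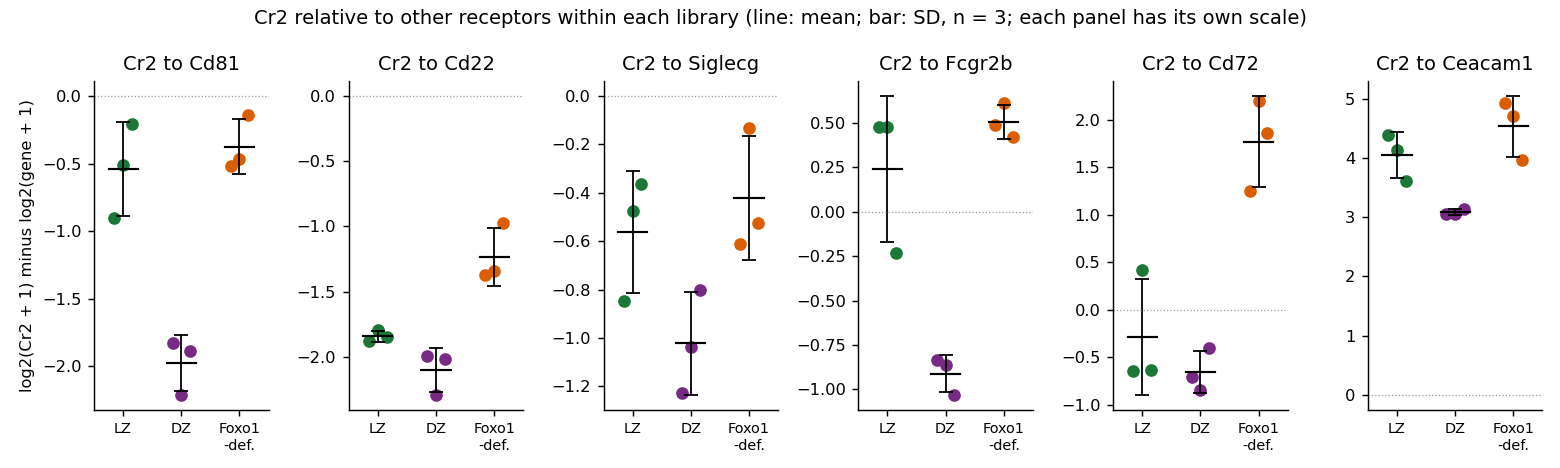
Cr2 relative to 6 other transcripts within a library, as a difference of log2(FPKM + 1) (vertical axis, each panel with its own scale), with 1 point a library, the mean as a line and the SD as a bar. The Foxo1-deficient libraries lie at 1.25 to 2.20 in the panel of Cd72, above both zones, and DZ is the lowest group on average in every panel.

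Of the 18 such tests, over 6 receptors and 3 comparisons, none could pass: 3 against 3 libraries give an exact two-sided permutation p of no less than 0.1, and the smallest adjusted p was 0.15. The libraries did not overlap for 4 of 6 receptors in DZ against LZ, 2 of 6 in Foxo1-deficient against LZ and 6 of 6 in Foxo1-deficient against DZ. Cr2 set against every other tested gene gave the same separation for 84.3%, 50.3% and 95.5% of genes, so these counts say little about the inhibitory receptors. Lair1 counts among the 6, but its balance follows Cr2 alone where it is listed at 0.

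Levels per length placed Cd22 first in each group, at 176 ± 20.1 in LZ, 77.5 ± 7.50 in DZ and 181 ± 17.0 in the Foxo1-deficient group (SD, n = 3). In LZ, Siglecg (72.9 ± 16.0), Cd81 (72.8 ± 20.9), Cd72 (60.7 ± 17.3), Cr2 (48.5 ± 6.63) and Fcgr2b (41.2 ± 8.30) followed, and the libraries of each overlapped those of the next. In DZ, Cd81 (71.1 ± 8.11) overlapped Cd22, and Cr2 (17.3 ± 1.72) was below Cd72 (28.0 ± 5.34), Fcgr2b (33.4 ± 2.51) and Siglecg (36.8 ± 8.85). In Foxo1-deficient cells the order was Cd22, Siglecg (104.8 ± 24.8), Cd81 (99.5 ± 9.03), Cr2 (76.5 ± 7.10), Fcgr2b (53.8 ± 8.52) and Cd72 (22.7 ± 8.52), where Siglecg overlapped both Cd81 and Cr2. Cr2 was thus the fifth in LZ, the sixth in DZ and the fourth in Foxo1-deficient cells, while Cd72 was the fourth in LZ and the sixth in Foxo1-deficient cells. Ceacam1 and Lair1 were the lowest 2 everywhere.

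The genes most like each receptor over the 9 libraries were found by Pearson's r of log2(FPKM + 1), as a description. The libraries fall into the 3 groups, so a high r mostly repeats the group means. For Cr2 they were Ptprc (0.992), which encodes the receptor phosphatase CD45, the tetraspanin gene Cd53 (0.991) and Ctsa (0.989), which encodes a lysosomal carboxypeptidase. For Cd22 they were Cd86 (0.995), a costimulatory ligand whose protein was used to gate the zones, Pld4 (0.983) and the noncoding RNA Malat1 (0.982). Siglecg was most like A630072M18Rik (0.979), 2810006K23Rik (0.968) and Sirpa (0.967), which encodes an inhibitory receptor for CD47.

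Those of Cd72 were Fam105b (0.961), Nudc (0.958) and Tceb2 (0.949), all with means highest in LZ and lowest in Foxo1-deficient cells. Fcgr2b was most like Nedd9 (0.938), Usp6nl (0.934) and Furin (0.933), Cd81 most like 2610027L16Rik (0.958), Ppil4 (0.94) and Pqlc2 (0.938), and Ceacam1 most like Fpgt (0.946), Gbp9 (0.941) and R3hdm1 (0.925). No gene appeared for more than 1 receptor, and no receptor among the genes of another.

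Among 8 tested genes of other tetraspanins and interferon-induced membrane proteins, 2 fell in DZ against LZ, beside 1.38% of all tested genes: Cd53 by 0.65 (adjusted p = 0.0283) and Cd82 by 1.09 (adjusted p = 0.00908). In Foxo1-deficient cells Cd53 was higher than in DZ by 0.93 (adjusted p = 0.00291) and Cd82 by 0.96 (adjusted p = 0.0105), where 2.1% of all tested genes rose. Ifitm1 was listed at 0 in the 6 wild-type libraries and was 5.60, 6.95 and 1.53 in Foxo1-deficient cells. It met the filter on low values only through that group and so had to differ, and it is given by its values alone. Ifitm2 and Ifitm3 also met the filter only with that group, and both were at 0 in most wild-type libraries. The 8 tested thus include genes with little room to fall between the zones.

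Of 14 tested enzymes and adaptors that act behind the inhibitory receptors, none passed in DZ against LZ or in Foxo1-deficient against LZ, and 2 rose in Foxo1-deficient against DZ, beside 2.1% of all tested genes. These were Inpp5d, the SHIP-1 gene (24.3 to 35.9 in DZ, 47.8 to 59.2 in Foxo1-deficient cells, 0.83, adjusted p = 0.0297), and Pag1, an adaptor that holds the kinase Csk at the membrane (6.92 to 8.98 and 19.9 to 22.6, 1.30, adjusted p = 0.01). Ptpn6, the SHP-1 gene, ranged over 115 to 141 in DZ, 181 to 199 in LZ and 149 to 200.1 in the Foxo1-deficient group and passed nowhere (adjusted p = 0.0949 between the zones). Lyn, the kinase that phosphorylates ITIMs, was 42.6 to 61.7 over all 9 libraries, with adjusted p from 0.777 to 0.943.

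**Figure D4:**
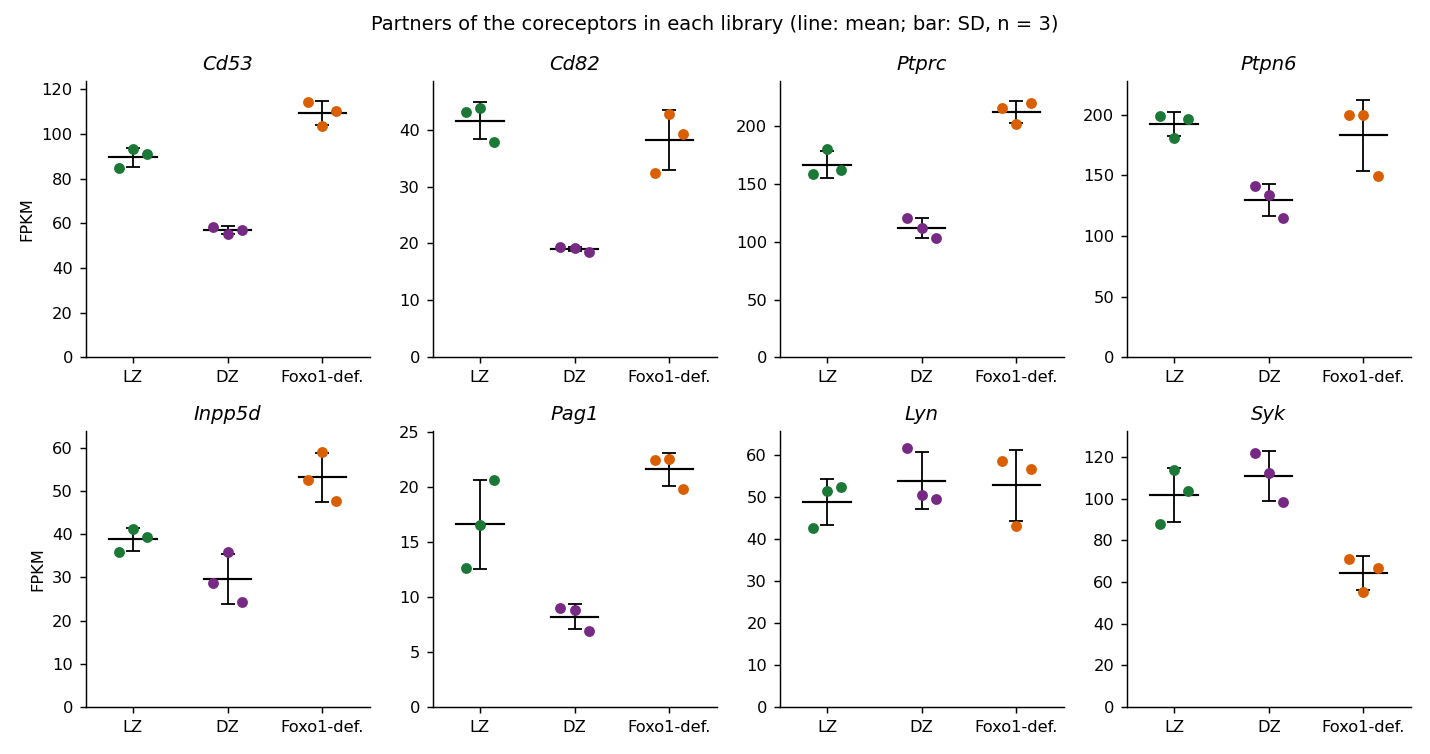
FPKM of 8 genes that act with the coreceptors (vertical axis, each panel with its own scale from 0) in the LZ, DZ and Foxo1-deficient libraries, 1 point a library, with the mean as a line and the SD as a bar. Cd53, Cd82, Ptprc, Ptpn6, Inpp5d and Pag1 are higher in Foxo1-deficient than in DZ libraries without overlap, as are 17.3% of tested genes. Ptpn6 did not pass the threshold. Syk is lower without overlap, as are 5.78% of tested genes, at 55.0 to 70.9 against 98.3 to 122.

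Of 14 tested transducers of the activating signal, 1 fell in DZ against LZ, beside 1.38% of all tested genes: Ptprc (-0.58, adjusted p = 0.0433). None passed in Foxo1-deficient against LZ. Against DZ, 3 of 14 passed, beside 2.85% of all tested genes, with a rise of Ptprc by 0.92 (adjusted p = 0.00291) and of Pik3ap1, an adaptor of phosphoinositide 3-kinase, by 0.74 (adjusted p = 0.0336), and a fall of the kinase gene Syk by 0.78 (adjusted p = 0.0243). Cd79a and Cd79b, the signalling chains of the antigen receptor, passed nowhere, with adjusted p from 0.502 to 0.846 and from 0.61 to 0.952.

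Of 22 further genes of inhibitory receptors, their relatives and ligands, 8 were tested. None of these passed in DZ against LZ or Foxo1-deficient against LZ. Against DZ, 2 of 8 rose, beside 2.1% of all tested genes. Cd300lf was 9.35 to 14.5 in Foxo1-deficient cells and 1.95 to 4.35 in DZ (1.61, adjusted p = 0.02), and Pecam1, which encodes CD31, was 8.69 to 16.6 and 4.22 to 5.10 (1.16, adjusted p = 0.0485). Ceacam2, a close relative of Ceacam1, stayed between 0.288 and 1.71, and fragments of such near-identical genes may be split in an uncertain way. The same holds for Fcgr2b and Fcgr3, which was 4.78 to 7.82 in Foxo1-deficient cells and 1.42 to 3.20 in LZ.

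On the side of the ligands and of the enzymes that set sialic acid, 8 genes were tested and none passed between the zones. St6gal1, the sialyltransferase that makes the ligand of CD22, was 60.5 to 68.0 in DZ and 32.9 to 44.1 in the Foxo1-deficient group and fell by 0.73 against DZ (adjusted p = 0.0315). Higher than in DZ were 2 of the 8, beside 2.1% of all tested genes. St3gal1, which adds sialic acid in another linkage, rose by 1.99 against DZ (adjusted p = 0.00413) and by 1.31 against LZ (adjusted p = 0.0464). Sema4d, which encodes the CD72 ligand semaphorin 4D, was 52.0 to 65.4 in DZ and 87.0 to 104.9 in the Foxo1-deficient group and rose by 0.71 (adjusted p = 0.0243).

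Of 6 tested complement receptors and regulators other than Cr2, none passed between the zones. Itgam and Itgax are among the 6 but lay near 0 in both zones, so they could not pass there. Cr1l, which encodes the complement regulator Crry, was 16.4 to 34.0 over the 9 libraries, with adjusted p from 0.843 to 0.961. Itgam, the alpha chain of complement receptor 3, was 1.70 to 4.59 in Foxo1-deficient cells and at most 0.365 in wild type. Itgax, the alpha chain of complement receptor 4, was 1.21 to 3.18 and at most 0.082. Both met the filter on low values only through the Foxo1-deficient group, so their differences are given with no test.

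Markers of myeloid cells moved with the Foxo1-deficient group. This bears on Fcgr2b, Lair1, Ceacam1, Siglecg, Cd300lf, Pecam1, Itgam and Itgax, since myeloid cells can express several of these. The same limit holds for other genes higher there than in DZ, such as Ptprc, Cd53, Cd82, Inpp5d, Pag1, Pik3ap1 and Ifitm1. The summed FPKM of 18 macrophage and monocyte markers was 8.99 to 12.6 in DZ, 16.3 to 21.3 in LZ and 134, 144 and 254 in Foxo1-deficient replicates 1, 2 and 3. Most of those tested met the filter only through the Foxo1-deficient libraries, so no count of calls is given. Lyz2, a lysozyme, was 51.6, 61.2 and 126.7, Tyrobp, an adaptor of activating receptors, 19.3, 21.8 and 23.9, and Csf1r, the growth factor receptor of macrophages, 3.42, 4.53 and 6.38, while Cd14 was at 0 in all libraries. The sum of 14 neutrophil markers was 2.30 to 6.54 in wild type and 91.2, 140.2 and 145 in Foxo1-deficient cells. Most of it was S100a9 (52.54, 56.55 and 80.46) and S100a8 (21.05, 54.45 and 44.94). Mpo, Elane and Cebpe were at 0 in all libraries. Camp and Ngp were above 0 only in Foxo1-deficient replicate 2, and Retnlg and Lcn2 only in Foxo1-deficient replicate 1.

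Foxo1-deficient replicate 3 had the highest macrophage sum and also the highest values of Cr2, Fcgr2b, Siglecg, Ceacam1 and Lair1 in its group, while Cd22 and Cd81 were lowest there and Cd72 lay between the other libraries. Without that library the differences from DZ were 2.02 for Cr2 (adjusted p = 0.000947), 1.28 for Cd22 (adjusted p = 0.00407), 1.37 for Siglecg (adjusted p = 0.0326) and 0.56 for Fcgr2b (adjusted p = 0.26). The part of myeloid RNA in these values was not tested.

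Other possible sources of these transcripts were looked at by their markers. Follicular dendritic cells also express Cr2 and Fcgr2b. The summed FPKM of 14 markers of these and stromal cells was 5.28, 4.74 and 13.5 in Foxo1-deficient replicates 1, 2 and 3. DZ libraries had sums of 1.99 to 4.06, and LZ libraries of 1.21 to 1.76. Foxo1-deficient replicate 3 also had the highest Cr2 and Fcgr2b of its group. Over the same replicates Vcam1 was 0.869, 0.52 and 5.75 and Clu 0, 0 and 4.49, and both were at 0 in every wild-type library. Mfge8 was 1.31, 3.37 and 0 there, against 1.47 to 2.54 for DZ and at most 0.69 for LZ. Cxcl13, Madcam1 and Pdpn were among 5 of the markers at 0 in all libraries. The sum of 11 markers of other B cell states, some of which express more Cr2, was highest in LZ, at 159 to 219, with DZ at 33.8 to 48.2 and the Foxo1-deficient group at 30.6 to 44.7. Most of it was Fcer2a, which encodes CD23, at 143 to 195 in LZ, whereas Cd9 (0 to 1.11 in LZ, 3.10 to 9.39 in Foxo1-deficient cells) and Klf2 (1.26 to 2.44 and 2.57 to 5.50) had their higher values in the Foxo1-deficient group. In the order LZ, DZ and Foxo1-deficient, that of 6 plasma cell markers was 127 to 151, 189 to 291 and 233 to 355, that of 10 T cell markers 49.0 to 67.1, 42.7 to 56.4 and 25.2 to 36.1, and that of 9 endothelial and epithelial markers 7.44 to 12.4, 5.35 to 7.07 and 9.40 to 16.9. Most of the plasma cell sum was Igj, with means of 88.8, 200 and 254 in LZ, DZ and Foxo1-deficient cells. In the same order, Xbp1 had means of 41.9, 45.0 and 47.8, whereas those of Irf4 were 9.74, 3.22 and 6.86, highest in LZ. The T cell sum was nearly all Lck and Cd2, with Cd3e, Cd3g and Cd4 at 0 in all libraries. Most of the endothelial and epithelial sum was Pecam1, given above among the inhibitory receptors, at 7.44 to 11.7, 4.22 to 5.10 and 8.69 to 16.6. Epcam had its highest mean in DZ (0.937), and 3 of these markers were at 0 in all libraries. The part of these cells in the results was not tested.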

How the data were processed

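RNA of 9 libraries of sorted mouse germinal center B cells was analysed from 1 gene table each. The deposited unit is FPKM with interval bounds and a status for each gene, in the layout of Cufflinks per the file headers. Alignment and quantification tools, per the submitters' processing notes, were TopHat2 (2.0.8) with Cufflinks (2.1.1) on build mm9. Annotation, scaling total, strand setting and depth are not given in the sources used here. Left out were 716 entries of 250 repeated symbols and 7 genes with a failed or too deep estimate in any library, which left 22977. Of these, 10004 reached an FPKM of 1 in 3 or more libraries and entered limma 3.58.1 (R 4.3.3, intensity trend) on log2(FPKM + 1), 1 fit of 3 group means with no replicate block, tested on simulated data. Within-library differences used exact permutation tests (scipy 1.17.1).

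The members and gene lists were chosen with earlier results of these data known. Named were the 8 receptors, 6 fixed genes (Cd79a, Cd79b, Ptpn6, Inpp5d, Lyn, Ptprc), listed pathway genes past the threshold in any comparison, the leading markers of other cells and the 3 genes most like each receptor. Cr1l, Ceacam2, Fcgr3, Cd14, Vcam1, Clu, Mfge8, Cxcl13, Madcam1, Pdpn, Cd9, Klf2, Cd3e, Cd3g, Cd4, Pax5 and Tesk1 are named outside or beside that rule, some after their values were seen. So are Ifitm2, Ifitm3, Mpo, Elane, Cebpe, Camp, Retnlg, Lcn2, Xbp1 and Irf4. 1 gene of the lists is not reported here and is left out of the list counts.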

Additional observations from a re-analysis of the deposited data

How the results depend on the processing

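Between the zones the calls of Cr2 and Cd22 (2 of 7) were the same in all 17 alternatives. So were those of Cr2, Cd22 and Siglecg in Foxo1-deficient cells against DZ (3 of 7). Lair1 enters only with no filter and is left out of these counts. Against LZ the count of 1, Cd72, became 0 with a pseudocount of 0.1, with a mean FPKM of at least 5 and with only the compared groups, 2 with median centring and with quantile normalization (Cr2 added), and 0 to 1 without single libraries. With no filter Cd72 did not pass (adjusted p = 0.112), so the count of the 7 became 0. Cr2 parted from 4 rather than 2 of 6 receptors in Foxo1-deficient against LZ with a pseudocount of 5, and from 2 to 4 without single libraries. The causes were not tested.

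Counts over all genes bear on the percentages printed beside the members. The 194 genes of DZ against LZ became 109 with no filter and 73 to 215 without single libraries. The 156 of Foxo1-deficient against LZ became 99 with a pseudocount of 0.1, 81 with a mean FPKM of at least 5, 69 with only the compared groups and 41 to 141 without single libraries. The 285 of Foxo1-deficient against DZ became 119 to 245 without single libraries. Median centring and quantile normalization moved the share of higher genes from 28.9% to 56.8% and 42.8% in DZ against LZ and from 73.7% to 44.6% and 60.8% in Foxo1-deficient against DZ, and the all-gene median from -0.146 to 0.043 and 0.008 and from 0.123 to -0.055 and 0.001. The signs of Cr2, Cd22, Siglecg, Cd72 and Fcgr2b were kept under both.

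Same-numbered libraries of different groups deviated together at r of -0.067 to 0.075, beside -0.112 to 0.050 for other pairs. Still, 5 of 9 libraries correlated best with their own number in both other groups, so a pairing is not excluded. The main fit did not take the numbers as pairs. With the replicate number as a block the counts of receptors stayed 2, 1 and 3, and those over all genes were 161, 137 and 221. The depth is not stated, so no limit of detection is given for Lair1 and Ceacam1 beyond the authors' intervals.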
